A study of Mus musculus with 9 samples.

Results

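The 10 genes below mark blood stem and progenitor cells and were followed in spleens of wild-type mice and in splenic lymphomas of Sca1-MALT1 mice: Kit, Cd34, Flt3, Meis1, Hoxa9, Gata2, Procr, Myb, Lyl1 and Erg. Every probe set whose platform symbol is exactly one of these names was taken, which gave 18 of the 45037 probe sets tested, for 10 of 18193 genes. Myb and Meis1 had 3 probe sets each, Kit, Hoxa9, Gata2 and Erg 2 each, and Cd34, Flt3, Procr and Lyl1 1 each. All values are log2 expression values, on which a step of 1 is a doubling.

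The controls were 4 spleens of wild-type mice recorded as healthy. The other group was 5 splenic lymphomas of Sca1-MALT1 transgenic mice, and all 9 samples were frozen tissue measured on 1 Affymetrix array each. The sources used here give neither strain nor age, and no agent. Nor do they say that each array stands for an animal of its own, so a p-value below weighs the spread among these arrays, part of which may be technical. Sca-1 is a surface protein of blood stem and progenitor cells encoded by Ly6a, and transgenes under its control elements are used to express a gene in those cells. Ly6a itself was not analysed here. MALT1 is a protease and scaffold of antigen receptor signalling.

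Blood stem cells reside mainly in bone marrow, but the mouse spleen also holds a small number and can take up blood formation under stress. Kit and Flt3 are receptors through which stem and progenitor cells receive growth signals, Cd34 and Procr are surface proteins used to sort them, and the other 6 genes encode transcription factors that hold the stem cell programme or steer progenitors into lineages. Gata2, Lyl1 and Erg belong to a group of factors that bind together at stem cell enhancers with the proteins of Tal1, Lmo2, Runx1 and Fli1. Several members are not restricted to stem cells: Kit and Gata2 are also active in mast cells and early erythroid cells, Flt3 in dendritic cells and their precursors, and Erg, Cd34, Procr and Meis1 in vessel endothelium.

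Over all probe sets, lymphomas 1 and 2 stood apart from the other arrays. Their limma array weights were 0.352 and 0.405, against 0.842 to 2.76 for the other 7 arrays. The mean level of 10 erythroid markers was 11.37 and 11.11 in them, 6.35 to 8.48 in lymphomas 3 to 5 and 7.08 to 8.58 in wild-type spleens. B-cell markers, which any tissue rich in B cells would carry, were read as a check on the lymphoid tissue and do not tell spleen from other organs. Their mean over 5 genes lay between 12.90 and 12.99 in wild-type spleens and between 11.83 and 13.03 in lymphomas, lowest in lymphoma 1. In pieces of tissue, fewer cells of a type and less RNA per cell cannot be told apart, which holds for every member below.

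Procr was the only member called between the groups, lower in lymphoma, and its call was lost in 9 of 20 alternative settings. Limma called 1 of the 18 member probe sets at an adjusted p under 0.05, 1 lower and 0 higher, where 0.486% of all probe sets were called (0.235% lower, 0.251% higher). At an unadjusted p under 0.05 there was again 1, against 13.9% of all probe sets. Groups did not overlap for that 1 member probe set, lower in lymphoma, as was so for 6.47% of all probe sets (4.08% lower, 2.39% higher). Of the 18 differences, 8 were above 0 and 10 below, with a median of -0.0046 against -0.010 over all probe sets. For 13 of the 18 the 95% interval of the difference lay inside a 2-fold change in either direction; the 5 others were the 3 Myb probe sets, Hoxa9 1455626_at and Erg 1440244_at.

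Many member probe sets, though not all, had a wide spread among lymphomas. The lymphoma values spanned more than the wild-type values for 17 of 18 member probe sets, as they did for 79.3% of all probe sets. The median ratio of the lymphoma SD to the wild-type SD was 3.69 for the members and 1.69 over all probe sets. It was below that 1.69 for Hoxa9 1421579_at, Meis1 1459423_at, Procr, Lyl1 and Erg 1425370_a_at, at 0.797 to 1.64, and from 2.51 to 11.8 for the other 13. Lymphoma 1 was the highest of the 9 arrays for 13 of 18 member probe sets, against 15.9% of all probe sets, and lay above every wild-type spleen for the same number, 13 of 18, against 27.0%. Lymphoma 4 was the lowest array for 8 of 18, against 10.04% of all, and lay below every wild-type spleen for 9 of 18, against 26.6%. Probe sets of the same gene are counted separately here. On the highest-mean probe set of each gene, lymphoma 1 was highest for 6 of 10 members, against 18.4% of all genes. Lymphoma 4 was lowest for 5 of 10, against 10.5%. These shares describe single arrays and were not tested.

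**Figure D1:**
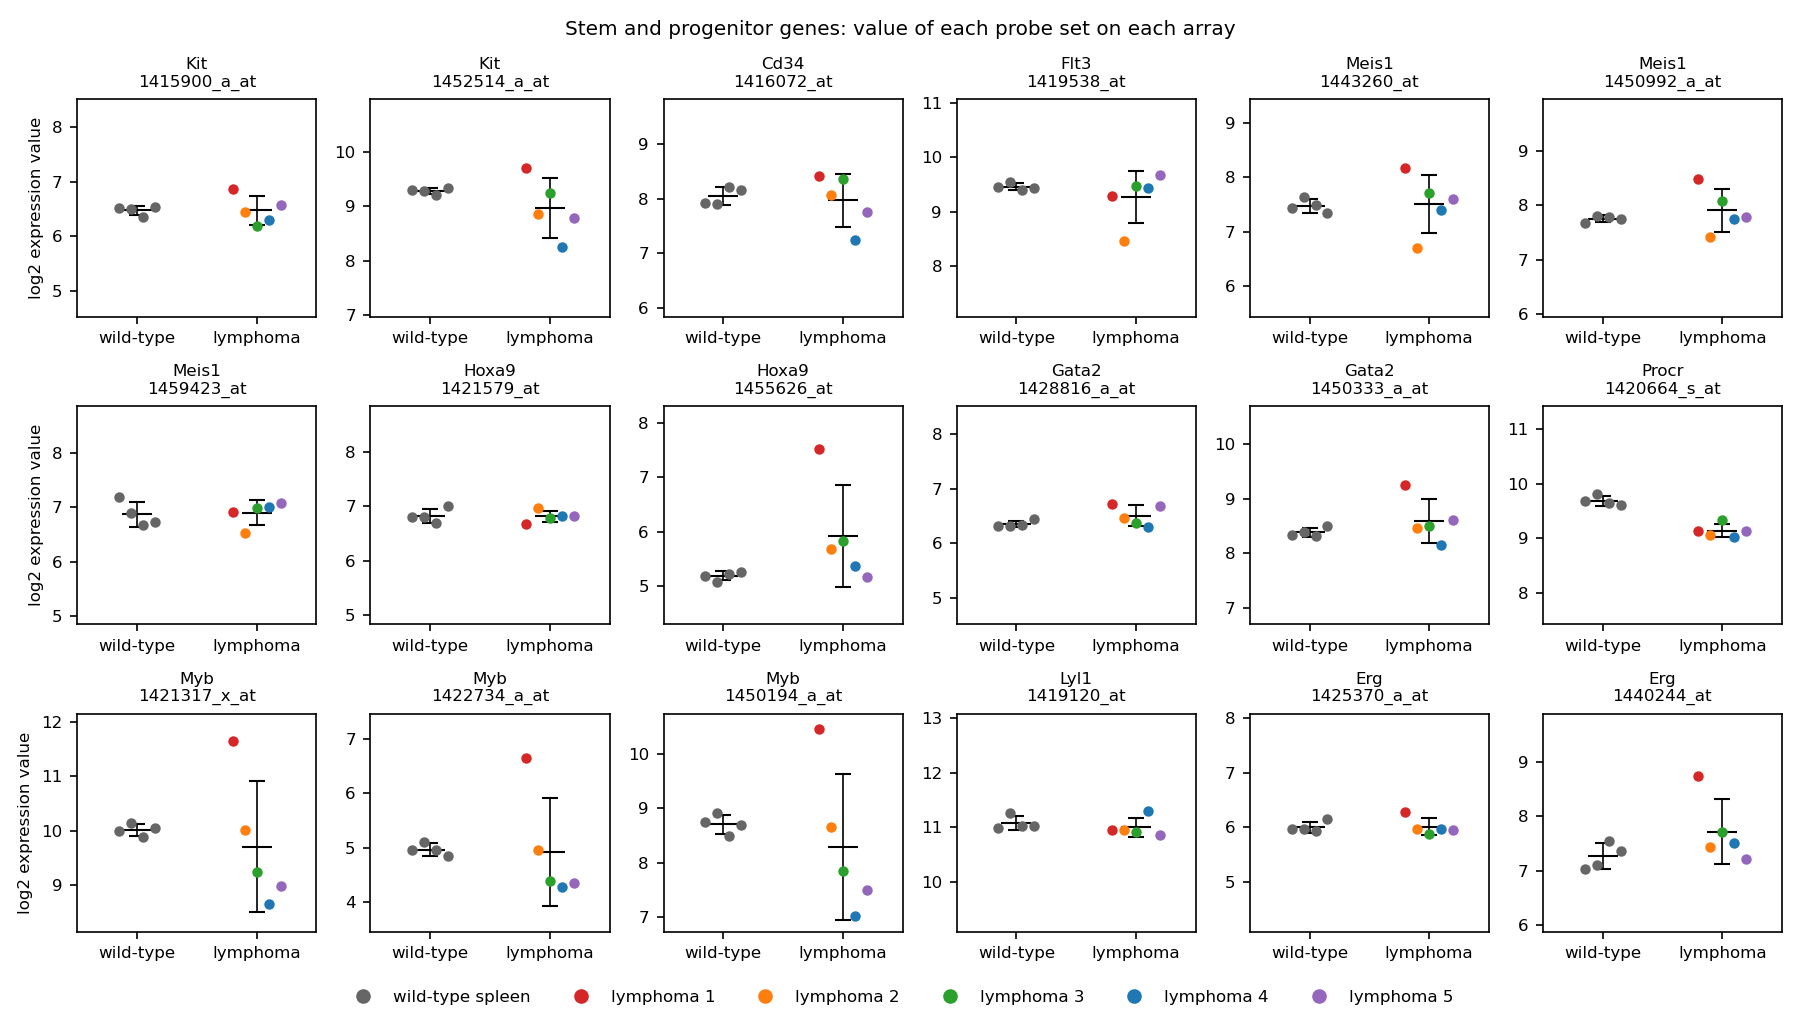
Log2 expression value of each of the 18 probe sets on the 4 wild-type arrays (grey) and the 5 lymphoma arrays (coloured by array), with the group mean and SD in black; each panel spans 4 log2 units. The wild-type points lie close together, lymphoma 1 (red) lies above them for Myb, Hoxa9 1455626_at and Erg 1440244_at, and for Procr all 5 lymphomas lie below all 4 wild-type spleens.

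The stretches before the start sites of Procr, Myb and Hoxa9 are shown because the called difference and the widest spread among lymphomas fall on these 3 genes. They are the 250 bases before the start in RefSeq, build GRCm38.p6, read 5′ to 3′ on the gene's strand. Capitals mark matches, on either strand, to 6 short motifs of factor families to which members belong: GATAA (GATA factors), CANNTG (the E-box of factors such as Lyl1), CCGGAA (ETS factors such as Erg), TGACAG (Meis factors), TTTATNG (Hox factors of the Hoxa9 type) and AACNG (Myb). Overlapping matches share capitals.
Procr, chr2:155750967-155751216, plus strand: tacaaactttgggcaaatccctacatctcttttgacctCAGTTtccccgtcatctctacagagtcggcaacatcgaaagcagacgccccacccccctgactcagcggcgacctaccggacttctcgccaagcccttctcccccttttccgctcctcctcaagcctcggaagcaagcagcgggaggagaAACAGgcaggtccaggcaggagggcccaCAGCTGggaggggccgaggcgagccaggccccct
Myb, chr10:21160985-21161234, minus strand: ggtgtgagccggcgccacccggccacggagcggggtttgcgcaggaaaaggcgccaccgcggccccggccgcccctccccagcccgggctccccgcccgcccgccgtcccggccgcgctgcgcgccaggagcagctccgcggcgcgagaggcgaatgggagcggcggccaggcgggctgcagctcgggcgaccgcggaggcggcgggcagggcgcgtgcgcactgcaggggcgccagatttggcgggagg
Hoxa9, chr6:52227371-52227620, minus strand: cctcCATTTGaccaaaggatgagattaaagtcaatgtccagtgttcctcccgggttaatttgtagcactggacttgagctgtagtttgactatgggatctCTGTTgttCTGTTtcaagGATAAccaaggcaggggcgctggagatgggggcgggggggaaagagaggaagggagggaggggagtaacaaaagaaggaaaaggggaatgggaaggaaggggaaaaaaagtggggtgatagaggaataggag
The Procr stretch held 1 CANNTG and 2 AACNG matches, and the Hoxa9 stretch held 1 GATAA, 1 CANNTG and 2 AACNG. The Myb stretch held none of the 6 motifs in these letters and was 81.2% G and C, against 61.6% for the Procr stretch and a median of 52.4% over 32851 RefSeq stretches. Promoters of all 10 members were found, 14 stretches in all. AACNG occurred in at least 1 stretch of 7 members (74.19% of all stretches of this length), CANNTG in 6 (66.22%), GATAA in 2 (22.58%), CCGGAA in 2 (12.03%), TGACAG in 1 (15.86%) and TTTATNG in 0 (9.811%). The member figures count genes with a match in any of their stretches, while the percentages count single stretches, so the 2 are not like for like. A match is a stretch of letters and was not tested as a binding site.

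Procr encodes the endothelial protein C receptor, an anticoagulant receptor of vessel walls that also marks the most primitive blood stem cells. The wild-type spleens read 9.67, 9.81, 9.65 and 9.61, and lymphomas 1 to 5 read 9.14, 9.06, 9.34, 9.03 and 9.14. All 5 lymphomas were below all 4 wild-type spleens, the gap being narrowest for lymphoma 3. The mean fell from 9.69 ± 0.088 (SD, n = 4) to 9.14 ± 0.12 (SD, n = 5), a log2 difference of -0.55 (SE 0.083, 95% interval -0.73 to -0.36) or a 1.46-fold lower level. The limma adjusted p was 0.0316, within a range of 0.0139 to 0.211 over 20 alternative settings. The difference kept its sign with any 1 array left out, between -0.60 and -0.50, but the call was lost without wild-type spleen 1, 2, 3 or 4 (limma adjusted p 0.124, 0.137, 0.124 and 0.0860) and without lymphoma 4 or 5 (0.0510 and 0.0776). It was also lost with an intensity trend in the prior (0.0544) and with the erythroid marker mean as a covariate (0.0585). The probe set carries the suffix _s_at, by which Affymetrix marks one that may match several transcripts.

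Markers of dendritic cells and of vessel endothelium were read beside Procr. The differences of all 7 dendritic cell markers were negative, limma called 0 of them, and 4 were lower at an unadjusted p under 0.05. Their mean level was 8.27 to 8.40 in wild-type spleens and 7.72 to 8.25 in lymphomas. Siglech, a receptor of plasmacytoid dendritic cells, differed by -0.585 (limma adjusted p 0.104), and Ccr9, a chemokine receptor found on those cells, by -0.99 (0.222). The smallest differences of the list were those of Batf3 (-0.065, limma adjusted p 0.865), Itgax (-0.11, 0.850) and Xcr1 (-0.22, 0.575). Of 14 endothelial markers none passed limma's test; at an unadjusted p under 0.05, 2 were higher and 2 lower. Their mean level was 8.18 to 8.57 in wild-type spleens and 7.94 to 9.06 in lymphomas, highest in lymphoma 1 and lowest in lymphoma 4. The scavenger receptor gene Stab2, of spleen sinus vessels, stood at 0.84 (limma adjusted p 0.317). Vwf, a clotting factor gene of vessels and platelets, stood at 0.87 (0.644). Stab2 and Robo4 (0.32, 0.303) were the 2 higher at an unadjusted p under 0.05. The 2 lower were Pecam1, at -0.33 (0.280), and Sox17, at -0.59 (0.341). The part of either cell type in the fall of Procr was not tested.

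Of the growth factor receptors, Kit answers to stem cell factor and carries signals for progenitors, mast cells and early erythroid cells. On probe set 1452514_a_at the wild-type spleens read 9.29, 9.29, 9.21 and 9.34, and lymphomas 1 to 5 read 9.70, 8.86, 9.25, 8.24 and 8.79. Lymphoma 1 lay above the wild-type range, lymphoma 3 inside it and the other 3 below it. The difference was -0.31 (SE 0.24, 95% interval -0.85 to 0.23, limma adjusted p 0.609), with an SD of 0.54 among lymphomas against 0.056 among wild-type spleens. Without lymphoma 1 it was -0.49, and without lymphoma 4 -0.13. The other Kit probe set, 1415900_a_at, averaged 6.47 in both groups, with lymphoma 1 again the highest array at 6.86 (limma adjusted p 0.999).

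Flt3 encodes the receptor for Flt3 ligand, which drives lymphoid progenitors and dendritic cells. It read 9.45, 9.55, 9.39 and 9.44 in wild-type spleens and 9.29, 8.46, 9.47, 9.42 and 9.68 in lymphomas 1 to 5. The array that stood out was lymphoma 2, the lowest of the 9, while lymphoma 5 was the highest of all 9. The difference of -0.19 (SE 0.21, limma adjusted p 0.736) turned to 0.0080 without lymphoma 2.

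Cd34, a sialomucin on progenitors and vessel walls, read 7.92, 7.91, 8.21 and 8.17 in wild-type spleens. In lymphomas 1 to 5 it read 8.42, 8.07, 8.36, 7.24 and 7.76, so that lymphomas 1 and 3 lay above the wild-type range and lymphomas 4 and 5 below it. The group means were 8.05 ± 0.16 (SD, n = 4) and 7.97 ± 0.49 (SD, n = 5), a difference of -0.081 (SE 0.22, limma adjusted p 0.908), which became 0.10 without lymphoma 4.

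Myb, a transcription factor that immature and dividing blood cells need, had the widest spread of all members. Probe set 1450194_a_at read 8.74, 8.91, 8.49 and 8.68 in wild-type spleens and 10.44, 8.64, 7.85, 7.02 and 7.49 in lymphomas 1 to 5. Lymphoma 1 was far above wild-type, lymphoma 2 inside the wild-type range and lymphomas 3, 4 and 5 below it. Probe set 1421317_x_at gave the same order of the lymphomas, with 11.65, 10.02, 9.25, 8.65 and 8.99 against 9.88 to 10.14 in wild-type. The third, 1422734_a_at, read 6.64, 4.95, 4.39, 4.28 and 4.35 against 4.84 to 5.11.

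On all 3 Myb probe sets lymphoma 1 was the highest array, by 1.51 to 1.54 over the next, and lymphoma 4 the lowest. The lymphoma values spanned 3.42, 3.004 and 2.36 on 1450194_a_at, 1421317_x_at and 1422734_a_at, against 0.42, 0.26 and 0.27 in wild-type spleens. The group differences were -0.41, -0.31 and -0.042 with SEs of 0.59, 0.52 and 0.43, and limma called none of the 3 (adjusted p 0.804, 0.839 and 0.980; 0 at an unadjusted p under 0.05). Without lymphoma 1 they were -0.95, -0.79 and -0.47. Without lymphomas 1 and 2, the arrays that stood apart, they were -1.25, -1.06 and -0.62, and limma called all 3 lower (adjusted p 0.0172, 0.0114 and 0.0131), where 0.810% of all probe sets were called lower. With Procr, 4 of the 18 member probe sets were called in that setting. The 3 Myb probe sets read the same gene on the same arrays, and 1422734_a_at was dim outside lymphoma 1. The suffix of 1421317_x_at is among those left out in another setting. Lymphomas 3 to 5 are not a group of the study, and this setting was written with the standing of lymphomas 1 and 2 known.

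**Figure D2:**
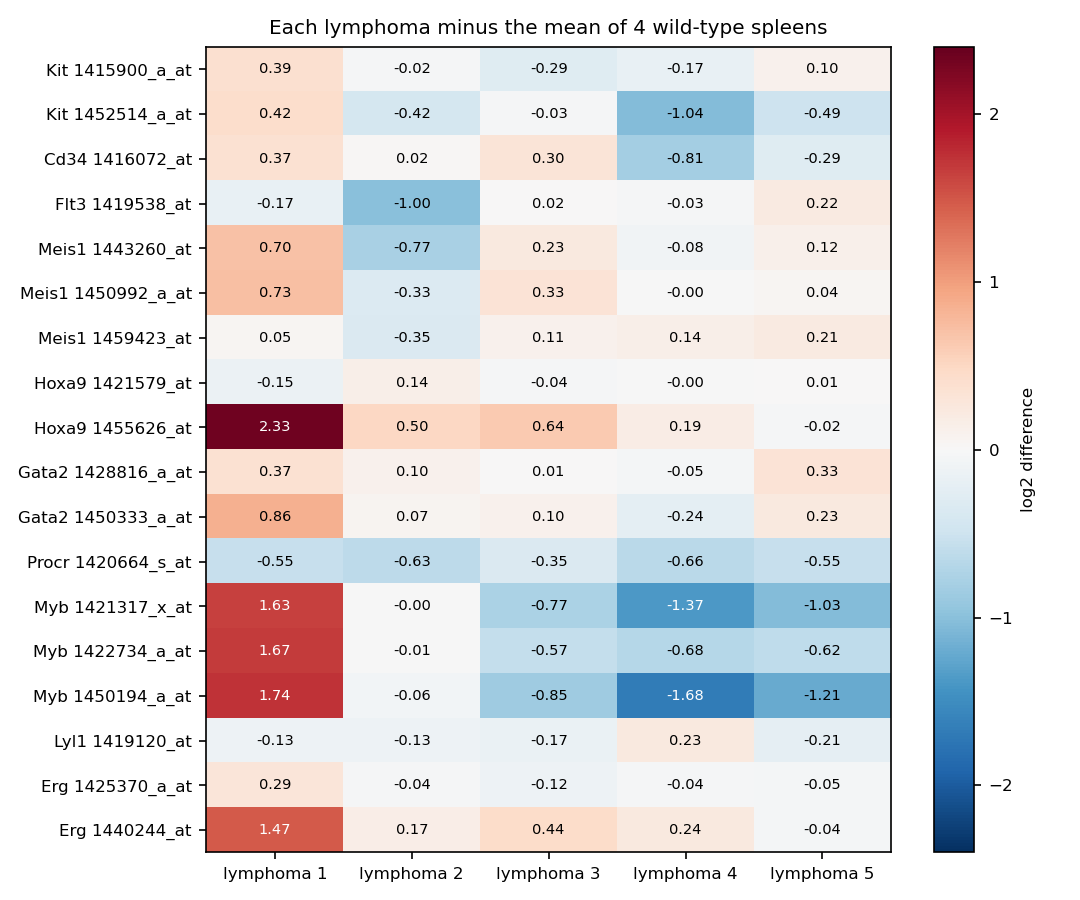
Each lymphoma's log2 value minus the mean of the 4 wild-type spleens, for the 18 probe sets (rows) and 5 lymphomas (columns); red is above and blue below the wild-type mean. The lymphoma 1 column holds the largest values, up to 2.33 for Hoxa9 1455626_at, the Procr row is blue throughout, and the Myb rows run from 1.74 in lymphoma 1 to -1.68 in lymphoma 4.

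Only Myb had a highest-mean probe set that spanned at least 2 log2 units over the 9 arrays, so genes with a like pattern were sought for it alone. The measure was the root-mean-square distance between log2 profiles over the 9 arrays, each centred on its own mean. The nearest were Ppp1r9a, which encodes an actin-binding scaffold best known from neurons (0.34), Ccdc18, a coiled-coil protein gene (0.35), and Mcemp1, a membrane protein gene of mast and myeloid cells (0.35). Ppp1r9a read 8.55 in lymphoma 1 and 6.52 in lymphoma 4, against 7.52 to 7.83 in wild-type. Mcemp1 read 11.02 and 8.88 in the same arrays and 9.36 to 9.91 in wild-type. These genes were chosen for their likeness, which is therefore no finding.

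Hoxa9, a homeobox factor of stem and early progenitor cells, had probe sets that disagreed. On 1455626_at the wild-type spleens read 5.19, 5.08, 5.23 and 5.26, and lymphomas 1 to 5 read 7.52, 5.69, 5.83, 5.38 and 5.16. Of the lymphomas 4 lay above the wild-type range, lymphoma 1 by far the most. The difference of 0.72 (SE 0.41, 95% interval -0.19 to 1.64, limma adjusted p 0.469) was 0.32 without lymphoma 1. All other 8 arrays read below 6, the level used as the limit of dim probe sets, where RMA compresses differences. On 1421579_at all 9 arrays lay between 6.67 and 6.99, with lymphoma 1 the lowest (difference -0.0089, limma adjusted p 0.979). The files do not say which of the probe sets reads the Hoxa9 transcript of these tissues.

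Meis1, the homeobox partner of Hoxa9, read 7.67, 7.80, 7.79 and 7.75 on 1450992_a_at in wild-type spleens and 8.48, 7.42, 8.08, 7.75 and 7.79 in lymphomas 1 to 5. Lymphoma 1 was highest and lymphoma 2 lowest of the 9 arrays, and lymphomas 4 and 5 lay inside the wild-type range. The difference was 0.15 (SE 0.18, limma adjusted p 0.760), and 0.0089 without lymphoma 1. Probe set 1443260_at had the same highest and lowest arrays, at 8.17 and 6.70, with a difference of 0.040 (limma adjusted p 0.965). On 1459423_at the groups spanned about the same range, 6.67 to 7.19 in wild-type and 6.52 to 7.08 in lymphoma (difference 0.033, limma adjusted p 0.945).

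Gata2, a zinc finger factor of stem cells and of mast, megakaryocyte and early erythroid cells, read 8.34, 8.38, 8.32 and 8.51 on 1450333_a_at in wild-type spleens. Lymphomas 1 to 5 read 9.25, 8.46, 8.49, 8.15 and 8.61, so that lymphoma 1 was 0.63 above the next array and lymphoma 4 was the lowest. The difference of 0.20 (SE 0.19, limma adjusted p 0.670) was 0.041 without lymphoma 1. The other probe set, 1428816_a_at, had the same highest and lowest arrays, at 6.73 and 6.30, and a difference of 0.15 (limma adjusted p 0.536).

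Erg, an ETS factor of stem cells and endothelium, read 7.03, 7.11, 7.54 and 7.37 on 1440244_at in wild-type spleens and 8.73, 7.43, 7.70, 7.50 and 7.22 in lymphomas 1 to 5. Lymphoma 1 stood 1.03 above every other array, and lymphoma 3 was the other one above the wild-type range. The difference of 0.45 (SE 0.28, 95% interval -0.16 to 1.07, limma adjusted p 0.503) was 0.20 without lymphoma 1. On 1425370_a_at the arrays lay between 5.88 and 6.29, lymphoma 1 again the highest (difference 0.0083, limma adjusted p 0.982).

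Lyl1, a basic helix-loop-helix factor of stem, lymphoid and erythroid progenitors, had lymphoma 4, not lymphoma 1, as its highest array. It read 11.00, 11.26, 11.03 and 11.03 in wild-type spleens and 10.95, 10.95, 10.91, 11.31 and 10.87 in lymphomas 1 to 5. Of the lymphomas 4 lay just below the wild-type range and lymphoma 4 just above it. The difference was -0.081 (SE 0.10, 95% interval -0.32 to 0.15, limma adjusted p 0.782), and -0.16 without lymphoma 4.

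**Figure D3:**
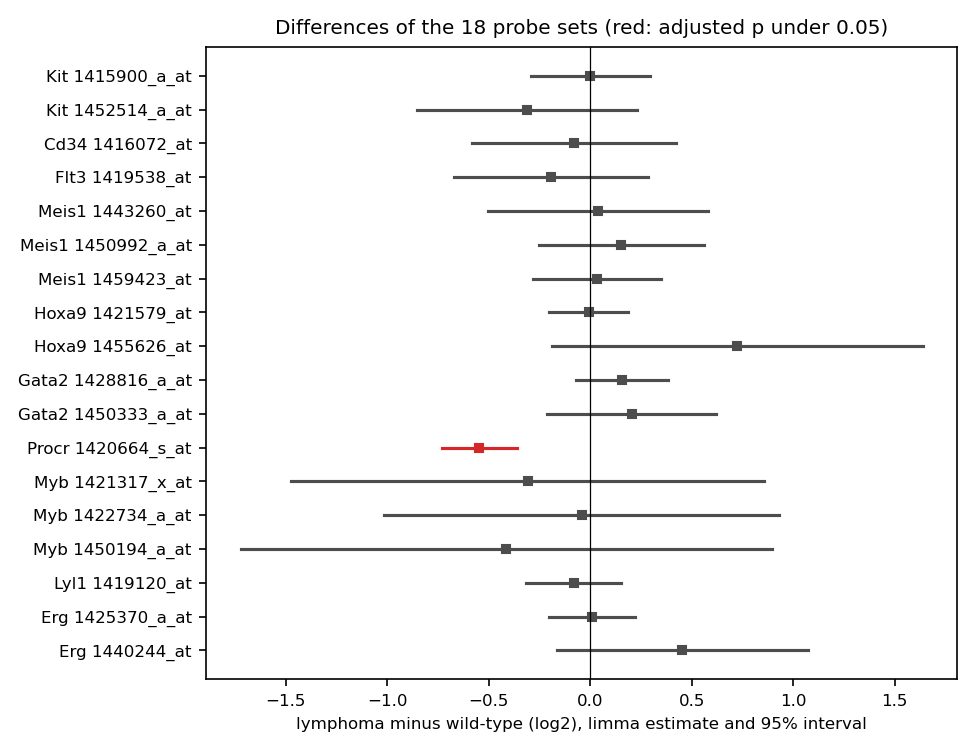
Difference of the group means, lymphoma minus wild-type, of each of the 18 probe sets on the log2 scale (square) with the 95% interval from limma (line). Procr, in red, is the single probe set with an adjusted p under 0.05 (0.0316); the intervals of the 3 Myb probe sets are the widest, and those of Lyl1 and Hoxa9 1421579_at are among the narrowest.

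Genes that work with the members were read on the highest-mean probe set of each gene, of which 0.346% were called higher and 0.258% lower, with a median difference of 0.0012 over all genes and 50.3% of them above 0 (3 of the 10 members). Of 11 homeobox partners measured of 12 listed, 1 rose, 0 fell and 10 did not pass (median difference 0.074). The riser was Pbx3, whose protein binds DNA together with Hox and Meis proteins. Pbx3 read 9.26, 9.07, 9.14 and 9.18 in wild-type spleens and 9.99, 10.16, 10.45, 10.05 and 10.20 in lymphomas 1 to 5 on 1447640_s_at. All 5 lymphomas lay above all 4 wild-type spleens, at a difference of 1.01 (SE 0.098, limma adjusted p 0.0107), and the call was lost without wild-type spleen 2 or 3 (0.0640 and 0.0639). Its second probe set rose by 0.72 (limma adjusted p 0.0390), also without overlap, and lost its call without any 1 of the wild-type spleens or without lymphoma 4 or 5 (0.0587 to 0.166) and with the erythroid marker covariate (0.0659).

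None of 15 transcription factor partners was called (limma 0 of 15, 1 lower at an unadjusted p under 0.05, median difference -0.042). The 1 lower was Mecom, at -0.40 (limma adjusted p 0.257), with 4 of the 5 lymphomas below every wild-type spleen. Tal1, a factor related to Lyl1 that stem and erythroid cells need, differed by 1.49 (SE 1.09, limma adjusted p 0.586). The 5 lymphomas in order read 11.98, 11.57, 8.46, 6.26 and 8.04, against 7.05 to 8.75 in wild-type spleens. Gfi1b, a repressor of erythroid and megakaryocyte cells, differed by 0.82 (limma adjusted p 0.576) with 9.29 and 8.78 in lymphomas 1 and 2 and 6.03 to 7.15 in the others. Without those 2 arrays Tal1 stood at -0.19 and Gfi1b at -0.089.

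Of 7 ligand and cytokine axis genes measured of 10 listed limma called 0, and 0 had an unadjusted p under 0.05 (median difference -0.083). Angpt1, a ligand of the vessel and stem cell receptor Tek, stood at 0.77 (limma adjusted p 0.435) with 8.68 in lymphoma 1 and 6.24 to 6.92 in wild-type. Il7r, a receptor chain of lymphoid progenitors and T cells, stood at -0.42 (0.752), with 10.54 and 10.25 in lymphomas 1 and 2 against 11.68 to 12.79 in the other 3. Kitl, which encodes the ligand of Kit, stood at -0.17 (0.865).

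Other stem and progenitor markers gave 0 calls among 15 measured of 16 listed, with 2 higher at an unadjusted p under 0.05 (median difference 0.050). Prom1, a membrane protein gene of progenitors and epithelia, stood at 1.24 (SE 0.66, limma adjusted p 0.444). It read 10.50 in lymphoma 1, 6.87 to 7.49 in lymphomas 2 to 5 and 6.47 to 6.77 in wild-type spleens, so that the groups did not overlap. The groups did not overlap either for Fgd5, a gene of stem cells and vessel walls, and Afdn, a scaffold gene of cell junctions, which were the 2 with an unadjusted p under 0.05. Fgd5 read 9.24 to 9.92 in lymphomas and 9.07 to 9.18 in wild-type spleens (difference 0.46, limma adjusted p 0.179), and Afdn 9.01 to 10.24 and 8.66 to 8.92 (0.71, 0.194). Over all probe sets, groups did not overlap for 2.39% in this direction. Cd27, a receptor of lymphocytes and of some progenitors, stood at -0.80 (0.501) with 7.75 and 7.25 in lymphomas 1 and 2 against 8.96 to 9.64 in the other 3. Lymphoma 1 was the highest of the 9 arrays for 8 of these 15 genes, against 18.4% of all genes.

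Many markers of maturing blood lineages were also high in lymphoma 1. The mean of 5 granulocyte precursor markers was 11.71 in lymphoma 1, 7.73, 7.23, 6.49 and 8.19 in lymphomas 2 to 5, and 6.36 to 6.53 in wild-type spleens. All 5 were highest in lymphoma 1, among them Mpo at 12.53 and Prtn3 at 14.16, both enzymes of early granules, against 5.91 to 6.23 and 7.25 to 7.84 in wild-type. B-cell precursor markers averaged 8.35 in lymphoma 1 and 6.57 to 6.85 on the other 8 arrays, with the recombinase gene Rag1 at 7.86 against 3.35 to 3.83 elsewhere and the pre-B receptor gene Vpreb1 at 10.05 against 5.59 to 5.91. Of these 6 genes, 5 were highest in lymphoma 1, while Ebf1, a transcription factor of early and mature B cells, was lowest there, at 9.54 against 10.27 to 11.25 in the other lymphomas and 10.99 to 11.14 in wild-type spleens. Their part in the high values of Myb, Hoxa9, Erg and Gata2 in lymphoma 1 was not tested.

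Erythroid markers were high in lymphomas 1 and 2. Myb read 10.44 in lymphoma 1 and 8.64 in lymphoma 2 on 1450194_a_at, against 8.49 to 8.91 in wild-type spleens. Rhag, a red cell membrane gene, read 10.49 and 10.36 in these 2 arrays, and Alas2, the first enzyme of haem synthesis in red cells, 13.00 and 12.67. Proliferation markers averaged 11.13 and 10.96 in lymphomas 1 and 2, 7.94 in lymphoma 4 and 9.02 to 9.65 in wild-type spleens, with all 9 genes lowest in lymphoma 4. Mki67 read 13.97, 13.49 and 10.04 and Ccna2 11.94, 11.67 and 8.20 in lymphomas 1, 2 and 4. Megakaryocyte markers averaged 10.86 in lymphoma 1, 9.23, 9.31 and 9.60 in lymphomas 2, 3 and 5 and 7.41 in lymphoma 4, against 7.80 to 8.64 in wild-type. Gp1bb read 11.20 and 5.96 and Gp5 10.08 and 6.40 in lymphomas 1 and 4. Both genes lay above every wild-type spleen in 4 of the 5 lymphomas. Limma called 0 of the 5 granulocyte precursor, 6 B-cell precursor, 10 erythroid, 9 proliferation and 8 megakaryocyte genes. At an unadjusted p under 0.05, 1, 0, 0, 0 and 3 of them were higher. The part of erythroid, proliferating and megakaryocyte cells in the member values was not tested.

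Mast cells and basophils are among the other cells that carry Kit and Gata2, beside the erythroid and megakaryocyte cells above. Mast cell and basophil markers averaged 6.19 in lymphoma 1, 5.51 to 5.75 in lymphomas 2 to 5 and 5.43 to 5.59 in wild-type spleens. Limma called 0 of 9, and 0 had an unadjusted p under 0.05. Hdc, which makes histamine, read 8.10 in lymphoma 1 against a wild-type mean of 6.77, and the basophil protease gene Mcpt8 6.98 against 5.05 to 5.46. Of the 9 markers, 4 lay below 6 on every array, among them the mast cell protease gene Mcpt4 and the IgE receptor chain gene Fcer1a.

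**Figure D4:**
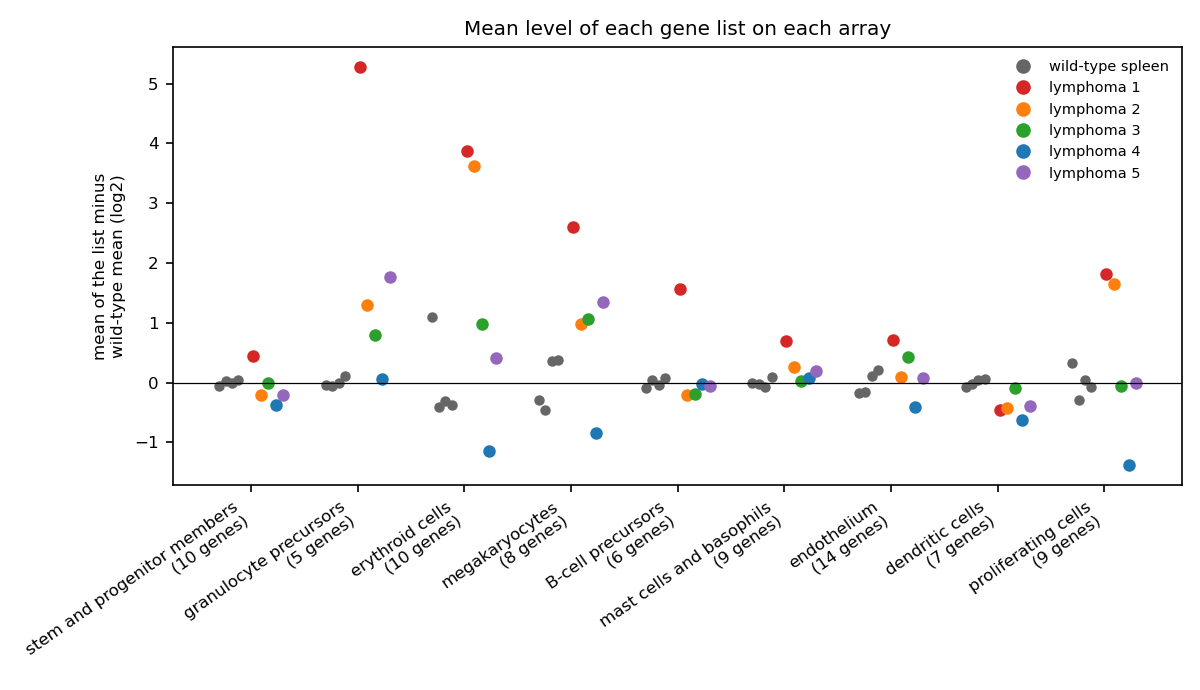
Mean log2 level of each gene list on each array minus its wild-type mean, for the 10 members and 8 lists of other cell types, with wild-type arrays in grey and lymphomas coloured. Lymphoma 1 (red) is the highest array for the members (9.23 against 8.72 to 8.83 in wild-type spleens) and for every list but the dendritic one, and lymphoma 4 (blue) is the lowest for the members (8.41) and for the erythroid, megakaryocyte, endothelial, dendritic and proliferation lists.

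Other cells of the spleen were read by their markers as well. T-cell markers averaged 8.83 and 9.03 in lymphomas 1 and 2 and 9.77 to 10.23 on the other 7 arrays, with limma calling 0 of 6 and 1 lower at an unadjusted p under 0.05. Cd3d stood at -0.75 (limma adjusted p 0.448) and Trat1 at -0.66 (0.137). Of 5 red pulp macrophage markers 3 rose (Hmox1, Cd68 and Vcam1, by 1.63, 0.996 and 0.77) and 2 did not pass, and their mean was 10.27 to 10.88 in lymphomas against 9.29 to 9.56 in wild-type spleens. Limma gave these 3 adjusted p-values of 0.0413, 0.0235 and 0.0183, and each call was lost without any 1 of the wild-type spleens or without lymphoma 5. B-cell markers had 0 calls among 5, with Blk at -0.54 (0.425), Cd22 at -0.52 (0.282) and 1 lower at an unadjusted p under 0.05.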

How the data were processed

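Biotin-labelled RNA of 4 wild-type spleens and 5 Sca1-MALT1 lymphomas was read on 1 Affymetrix array per sample, per the labels' protocols. The authors made the deposited log2 values with RMA, as the submitters' processing notes name it, and no version or probe definition is given in the sources used here. This method subtracts background, sets arrays to a common distribution and combines the probes of a set, so differences among dim signals come out too small. Array medians of 6.88 to 6.97 called for no further scaling.

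Of 45101 probe sets, 64 Affymetrix controls were left out and 45037 tested with limma 3.58.1 in R 4.3.3 (lmFit, eBayes, no covariate, two-sided, Benjamini-Hochberg adjusted over all of them). Names came from the platform annotation: 34945 tested probe sets had 1 symbol, 932 several and 9160 none. The highest-mean probe set stood for a gene in the lists, of which up to 4 called genes or else the 2 largest differences are named. Kitl, Mcpt4, Fcer1a, Fgd5, Afdn, Ebf1, Batf3, Itgax, Xcr1 and the second Pbx3 probe set were chosen after their values were seen. So were Robo4, Pecam1, Sox17 and Mecom. Members and lists were chosen with earlier results of these data known. Alternatives were a dim filter (6 or more on 4 arrays), other normalizations, priors and array weights, the replicate number as a block, other probe sets, leaving out arrays and an erythroid covariate. The fit was tested on simulated data with an equal spread in both groups. The spreads in these data differ, so that test cannot show how the fit behaves here. Array number limits precision. Promoters are RefSeq, GRCm38.p6. Figures used matplotlib 3.10.9 in Python 3.11.15.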

Additional observations from a re-analysis of the deposited data

Results flagged for a closer look

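Within the 36 groups examined (18 probe sets in each of 2 groups), 7 single arrays lay apart from the rest of their group. The rule flags about 1 group in 20 where values are independent and normally distributed. Probe sets of the same gene share their arrays, and the share over all probe sets was not computed. The count of 7 is therefore not read as an excess among the members. In lymphoma 1 these were Hoxa9 1455626_at at 7.52, Myb 1422734_a_at at 6.64 and Erg 1425370_a_at at 6.29, each above the other 4 lymphomas. Lymphoma 2 lay below the others on Meis1 1459423_at, at 6.52, and lymphoma 4 above them on Lyl1 1419120_at, at 11.31. Among wild-type spleens, spleen 2 lay above the others on Lyl1 1419120_at, at 11.26, and spleen 4 on Erg 1425370_a_at, at 6.14.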

How the results depend on the processing

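Limma called 219 probe sets as reported. With array weights it called 821, with a variance for each group 481, without lymphomas 1 and 2 935, with 1 probe set per gene 130 (113 higher and 106 lower as reported, 74 and 56 here), and between 0 (without wild-type spleen 2 or 3) and 530 (without lymphoma 2) with 1 array left out. Of the members 1 was called as reported and 0 to 1 with 1 array left out. It was 0 with an intensity trend in the prior, without _x_at and _s_at probe sets (which removes Procr) and with the erythroid covariate, and 4 without lymphomas 1 and 2. Over 21 settings 365 member differences were recomputed: 320 kept their sign and side of the threshold, 9 lost the call (all Procr), 3 gained it (Myb) and 33 changed sign, none of them called.

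The correlations of deviations of same-numbered arrays were 0.099, -0.19, 0.15 and -0.038. Arrays of different number were not compared, so these values cannot show whether the replicate numbers pair the arrays. With the replicate block limma called 5 probe sets and 0 members, with Procr at -0.55 (limma adjusted p 0.211), Pbx3 at 1.002 (0.151), Meis1 1459423_at at -0.012 and Myb 1422734_a_at at 0.10.

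Other differences also changed sign, none of them called as reported. Erg 1425370_a_at turned to -0.0038 with a further quantile normalization, -0.018 with array weights, -0.070 without lymphomas 1 and 2 and -0.050 with the erythroid covariate. Hoxa9 1421579_at was 0.00057 with array weights. With 1 array left out Kit 1415900_a_at ranged from -0.097 to 0.073, Cd34 from -0.19 to 0.10, Flt3 from -0.30 to 0.0080, Meis1 1443260_at from -0.12 to 0.24 and 1459423_at from -0.033 to 0.14, Hoxa9 1421579_at from -0.055 to 0.049, Myb 1422734_a_at from -0.47 to 0.12, Erg 1425370_a_at from -0.061 to 0.056 and Rag1 from -0.076 to 1.05. Without lymphomas 1 and 2, and with the erythroid covariate, Flt3 stood at 0.0675 and 0.010, Il7r at 0.34 and 0.27, Tal1 at -0.19 and -0.24, Gfi1b at -0.089 and -0.085, Rag1 at -0.11 and -0.033, Ccna2 at -0.31 and -0.34 and Mki67 at -0.48 and -0.55; Vpreb1 stood at -0.020 without those arrays. The cause of these changes was not tested.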
